A study of Mus musculus with 2 samples.

Results

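Spc25, its partners in the Ndc80 complex and a pair of proliferation genes were followed through single cells of the mature mouse retina with and without Ptbp1. They are 6 genes of the 25778 in the count table, namely the 4 genes of the complex (Spc25, Spc24, Ndc80 and Nuf2) together with Mki67 and Top2a. Spc25 was chosen by its low UMI count in Müller glia (MG) of the knockout library, so its ratio there is a description and supports nothing. The other 5 genes were added to ask whether the partners of Spc25 or genes of dividing cells went with it.

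Ptbp1-Ctrl was a Chx10-Cre mouse and Ptbp1-KO a Chx10-Cre;Ptbp1lox/lox mouse, in which Cre removes the promoter and first exon of Ptbp1. Both were 30 days old, and Chx10-Cre acts in retinal progenitors, so that MG and neurons descend from cells in which Cre was active. Whole retinas were dissociated and read with a 10x Genomics 3′ kit. There was 1 mouse and 1 library per genotype, so no difference below has a replicate check, and mouse, dissociation and library cannot be told apart from genotype.

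The Ndc80 complex is the part of the outer kinetochore that grips spindle microtubules when chromosomes are pulled apart. Ndc80 and Nuf2 form the end that binds the microtubule, and Spc24 and Spc25 form the end that is anchored on the inner kinetochore. Mki67 encodes the Ki-67 protein that coats mitotic chromosomes, and Top2a a topoisomerase that untangles DNA, and both are used as marks of cycling cells. MG are the main glia of the retina, are born from the same progenitors as retinal neurons and rarely divide in the uninjured mature mouse retina.

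Promoters are shown for Spc25, the member whose level in MG differed, for Nuf2, a partner, and for Top2a, a proliferation gene, because promoters of mitotic genes often share short elements. The sequences are those of RefSeq on GRCm38.p6, from 250 bases before to 50 bases after the start of the gene, 5′ to 3′ on the minus strand. They span chr2:69206164-69206463 for Spc25, chr1:169531415-169531714 for Nuf2 and chr11:99024140-99024439 for Top2a. Capitals mark matches on either strand. TTTGAA is the cell cycle homology element and reads TTCAAA when it lies on the reverse strand. Its variant TTCGAA reads the same on both strands. CCAAT, an element of many promoters, reads ATTGG on the reverse strand.
Spc25: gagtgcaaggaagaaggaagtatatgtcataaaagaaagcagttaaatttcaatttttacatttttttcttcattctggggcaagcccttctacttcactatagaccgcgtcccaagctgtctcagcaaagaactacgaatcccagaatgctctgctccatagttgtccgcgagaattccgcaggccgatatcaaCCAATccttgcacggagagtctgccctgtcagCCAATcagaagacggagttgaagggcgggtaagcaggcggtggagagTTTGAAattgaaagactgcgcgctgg
Nuf2: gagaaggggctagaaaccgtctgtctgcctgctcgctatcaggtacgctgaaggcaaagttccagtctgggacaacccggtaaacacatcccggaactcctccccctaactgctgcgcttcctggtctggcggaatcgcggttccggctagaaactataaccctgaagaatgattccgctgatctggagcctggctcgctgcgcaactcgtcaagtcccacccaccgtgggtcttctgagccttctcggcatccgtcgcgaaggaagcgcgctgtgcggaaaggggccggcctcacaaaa
Top2a: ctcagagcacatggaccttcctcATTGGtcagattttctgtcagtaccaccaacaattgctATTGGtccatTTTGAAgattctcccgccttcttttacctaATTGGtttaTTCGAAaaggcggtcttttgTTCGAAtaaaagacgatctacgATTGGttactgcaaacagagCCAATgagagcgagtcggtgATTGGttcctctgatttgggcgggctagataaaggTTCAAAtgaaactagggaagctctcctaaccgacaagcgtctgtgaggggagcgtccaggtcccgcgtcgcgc

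The Spc25 promoter held TTTGAA at position 25 and CCAAT at positions −55 and −23, counted from the start of the gene to the first base of the match. The Nuf2 promoter held none of the motifs searched, which also included GGCGGGAA, an E2F-type element. The Top2a promoter held TTTGAA or its reverse at −179 and −23, TTCGAA at −140 and −120, and CCAAT or its reverse at 6 places. Of the promoters not printed, that of Ndc80 held TTTGAA on the reverse strand at position 30 and none of the other motifs, and that of Mki67 held TTTGAA at 2 places and CCAAT at 3. Among all 32851 promoters of the same length, searched on both strands, TTTGAA was present in 17.9%, TTCGAA in 1.56%, CCAAT in 37.4% and GGCGGGAA in 2.19%. No motif overlapped another in the printed sequences. The table held promoters for 5 of the 6 genes, Spc24 not being among them. These matches describe letters in a window and say nothing of binding.

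The libraries held 16421 cells in Ptbp1-Ctrl and 14522 in Ptbp1-KO, and 1720 and 1184 of them carried the deposited label of MG. Levels are given as UMIs (unique molecular identifiers, 1 per captured transcript) per 1000000 UMIs of the same library and cell type, written CPM. The MG sums held 5906017 and 5085747 UMIs, with median depths of 3333 and 4178 UMIs per cell. A list of 14 MG markers, among them Glul, Rlbp1 and Sox9, summed to 32618 CPM in control MG and 33722 CPM in knockout MG. None was at 0, but the sums were not set against other types. They therefore do not check the label of these MG. A list of 8 rod markers summed to 4362 and 3553 CPM in the same cells, and 8 of 8 were lower in the knockout. Amacrine markers summed to 560 and 646 CPM, with 0 of 8 lower, and astrocyte markers to 38.3 and 49.0 CPM, with 0 of 5 lower. Of the 9 lists for types other than MG and rods, 8 summed higher in the knockout. Within most lists genes went both ways. Lower in the knockout were 3 of 14 MG, 2 of 6 cone, 5 of 9 bipolar and 3 of 8 ganglion cell markers. So were 1 of 5 horizontal cell, 2 of 8 microglia, 3 of 8 vascular and 2 of 5 pigment epithelium markers. The part of these differences in the ratios below was not tested. Ptbp1, the targeted gene, had 294 UMIs in control MG and 6 in knockout MG (log2 ratio −5.40, −6.86 to −4.26). The methods name female mice as the source, but Xist had 5 and 6 UMIs and the Y gene Uty had 6164 and 7085. The libraries shared 63 cell barcodes, and the Ptbp1-KO cells with these barcodes held 0 Spc25 UMIs.

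Spc25, which joins Spc24 at the anchored end of the complex, was the gene with the lowest ratio in MG among the 14016 genes with 20 or more UMIs over both libraries. It had 7568 UMIs in MG of Ptbp1-Ctrl and 75 in MG of Ptbp1-KO. That is 1281 CPM (exact Poisson interval, 1253 to 1311) and 14.7 CPM (11.6 to 18.5). The log2 ratio of Ptbp1-KO over Ptbp1-Ctrl was −6.44 (exact conditional binomial interval, −6.79 to −6.11), or 86.9-fold lower. Here and below, intervals are 95% ones for counting error alone. Ordered by CPM, which in a 3′ assay counts molecules irrespective of transcript length, Spc25 stood at rank 62 of all genes in MG of Ptbp1-Ctrl and at rank 8831 in MG of Ptbp1-KO. The next lowest ratios in MG were those of Ptbp1 (−5.40), Nostrin (−5.14) and Usp9y (−4.59, 28 and 1 UMIs). In all, 1.56% of the genes with 20 or more UMIs were at least 2-fold lower and 2.43% at least 2-fold higher in MG of Ptbp1-KO.

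The high level of Spc25 in Ptbp1-Ctrl was a property of most MG rather than of a few cells. In Ptbp1-Ctrl 1474 of 1720 MG held a Spc25 UMI (85.7%, exact Clopper-Pearson interval 84.0 to 87.3). In Ptbp1-KO 72 of 1184 did (6.08%, 4.79 to 7.60). At an equal depth of 1000 UMIs per cell, which leaves out 57 and 11 shallower MG, the expected shares were 64.7% and 1.43%. In rods of Ptbp1-Ctrl, whose median depth is 1088 UMIs, the share at 1000 UMIs was 0.961%, and in rods of Ptbp1-KO, with a median of 1288 UMIs, it was 0.0642%. The MG share thus lay above that of rods in each library. The median MG of Ptbp1-Ctrl held 4 Spc25 UMIs and the highest 33. In Ptbp1-KO 69 MG held 1 UMI, 3 held 2 and none held more.

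**Figure D1:**
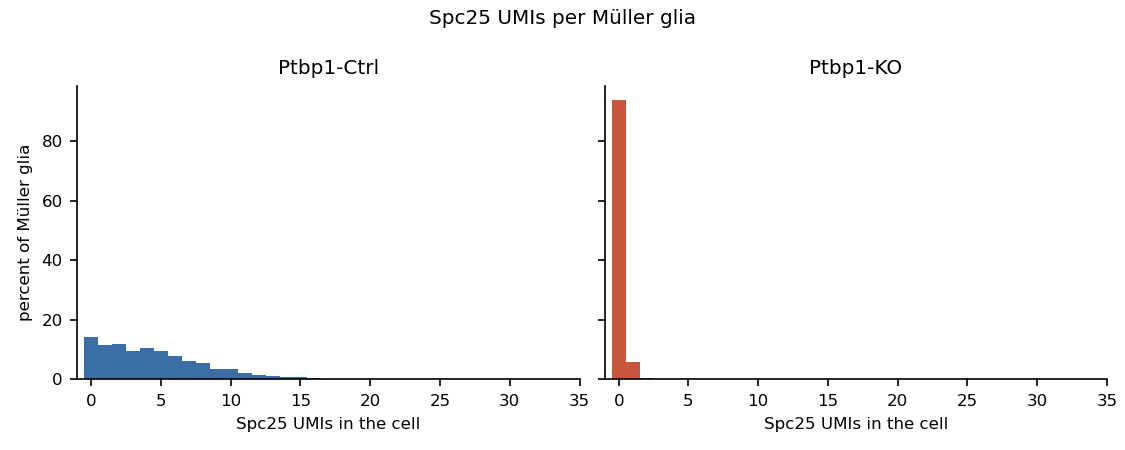
Spc25 UMIs in each MG (horizontal axis) against the percent of MG of the library (vertical axis), Ptbp1-Ctrl on the left and Ptbp1-KO on the right. MG of Ptbp1-Ctrl spread from 0 to 33 UMIs, with 14.3% at 0, while 93.9% of MG of Ptbp1-KO are at 0 and no cell is above 2.

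The spread of Spc25 between MG of Ptbp1-Ctrl lay within the range of the genes that mark MG. At 1000 UMIs per cell its variance over its mean was 1.36, and that of the 14 markers ran from 1.04 (Kcnj10, a potassium channel) to 2.92 (Apoe, a lipid carrier) with a median of 1.26. Of the markers, 5 were above Spc25, among them Glul, the glutamine synthetase of MG (2.71). All 5 had a higher mean than Spc25 (1.25 UMIs per cell), so this range does not match markers by level. Of those nearer in mean, Car2 was at 1.28 (mean 1.31) and Slc1a3 at 1.10 (mean 1.49), both below Spc25. Sox9, with a lower mean (0.575), was at 1.34. The deposited MG fell into 3 clusters that differed in level. In Ptbp1-Ctrl Spc25 stood at 1384 CPM (1352 to 1417) in cluster 4, at 807 CPM (732 to 888) in cluster 22 and at 558 CPM (485 to 640) in cluster 16. Glul followed the same order, with 10506, 6205 and 2177 CPM. In Ptbp1-KO Spc25 was low in each cluster, with 15.5 CPM (12.04 to 19.6) in cluster 4, 10.7 (2.92 to 27.4) in cluster 22 and 7.94 (0.962 to 28.7) in cluster 16, whose intervals overlap.

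Within the control library the Spc25 level was also set out by the depth of the cell and by the presence of a Ptbp1 UMI. The shallowest, middle and deepest parts of the MG, of nearly equal size, stood at 1171 CPM (1107 to 1237), 1423 CPM (1370 to 1477) and 1230 CPM (1190 to 1271), the middle part being clear of both others. MG of Ptbp1-Ctrl with a Ptbp1 UMI had 1308 CPM (1240 to 1378) and those without one 1276 CPM (1244 to 1308), whose intervals overlap. A Ptbp1 UMI was seen in 15.3% of these MG, and a cell without one may still have held Ptbp1 transcripts. In Ptbp1-KO only 4 MG held a Ptbp1 UMI, and these held 2 of the 75 Spc25 UMIs.

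Outside MG, Spc25 was also lower in Ptbp1-KO in each type with enough UMIs to give a ratio. Control rods held 157 Spc25 UMIs (12.04 CPM, 10.2 to 14.1) and knockout rods 12 (0.828 CPM, 0.428 to 1.45), for a ratio of −3.86 on the log2 scale (−4.85 to −3.02). In bipolar cells (BC) it had 63 and 4 UMIs (−4.04, −5.96 to −2.61). In amacrine cells (AC) it had 61 and 3 UMIs (−5.33, −7.64 to −3.71). In cones the counts were 18 and 1 UMIs (−3.88, −9.26 to −1.22). These UMIs are few beside those of MG, which held 96.2% of the Spc25 UMIs of Ptbp1-Ctrl and 78.9% of those of Ptbp1-KO. Retinal ganglion cells (RGC) had 3 and 0 Spc25 UMIs and horizontal cells (HC) 0 and 0, which gives no ratio. In Ptbp1-Ctrl the order of levels was MG, AC (31.2 CPM, 23.9 to 40.1), RGC, rods, cones (10.3 CPM, 6.11 to 16.3) and BC (6.44 CPM, 4.95 to 8.23), with HC at 0. Of neighbours in that order, AC and RGC, RGC and rods, rods and cones, and cones and BC overlapped in their intervals, and MG stood apart from all.

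The Spc25 UMIs outside MG were compared with those of the 14 MG markers in the same cells, each gene as percent of its own level in MG of that library. In Ptbp1-Ctrl Spc25 lay within the range of the markers in rods, cones, BC and AC, with 6, 7, 13 and 13 of the 14 markers above it. It stood in rods at 0.940% of its MG level (marker median 0.868%), in cones at 0.805% (0.930%), in BC at 0.502% (0.853%) and in AC at 2.43% (3.14%). In Ptbp1-KO the percents were above the marker medians, with 5.61% in rods (0.886%), 4.76% in cones (0.8997%), 2.65% in BC (0.839%) and 5.27% in AC (2.04%). These rest on 12, 1, 4 and 3 UMIs. Their divisor is the low MG level for which Spc25 was chosen, which raises the percents, so their place above the markers supports nothing. In rods of Ptbp1-KO 1 of the 14 markers was above Spc25. The Spc25 UMIs of rods were spread over 149 cells in Ptbp1-Ctrl, at most 3 in a cell, and over 9 cells in Ptbp1-KO. In AC of Ptbp1-Ctrl 45 of the 61 UMIs lay in 9 cells with more than 1, and 14 of the 25 AC with a Spc25 UMI also held a Glul UMI (56.0%, against 19.8% of AC without Spc25).

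**Figure D2:**
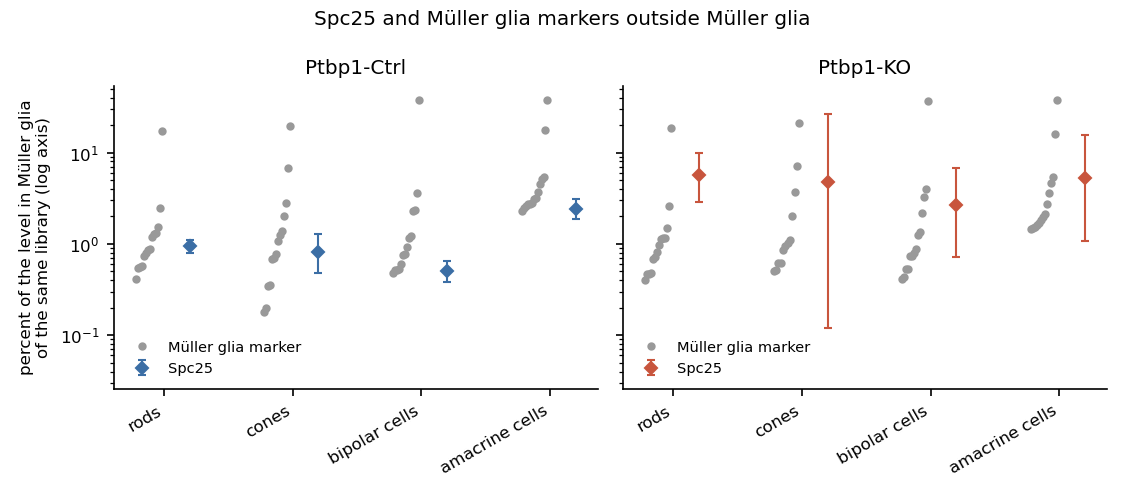
Level of Spc25 (diamonds, bars are 95% counting intervals) and of 14 MG markers (grey points) in 4 cell types, as percent of the level of the same gene in MG of the same library, on a log axis. In Ptbp1-Ctrl (left) Spc25 lies among the markers, from 0.502% in BC to 2.43% in AC. In Ptbp1-KO (right) it lies above the marker medians, on at most 12 UMIs a type. The divisor there is the low MG level for which Spc25 was chosen. Kcnj10 and Lhx2, at 0 in cones of Ptbp1-KO, are not drawn.

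The partners of Spc25 were near the limit of detection in MG of both libraries. Spc24, which pairs with Spc25 directly, had 6 UMIs in MG of Ptbp1-Ctrl and 4 in MG of Ptbp1-KO (1.02 and 0.787 CPM), and its log2 ratio was −0.37 (−2.64 to 1.71). Ndc80, the microtubule-binding subunit that names the complex, had 3 and 2 UMIs, and its partner Nuf2 had 3 and 0. Neither gives a ratio. By the exact Poisson interval, the count of 0 allows Nuf2 up to 0.725 CPM in MG of Ptbp1-KO, where 3 UMIs would be 0.590 CPM. Summed, the 3 partners came to 12 UMIs in control MG (2.03 CPM, 1.05 to 3.55) and 6 in knockout MG (1.18 CPM, 0.433 to 2.57). The intervals overlap, so a difference in the partners was not detectable at this depth. The interval of the Spc24 ratio does not reach the −6.44 of Spc25. As Spc25 was chosen for that value, the contrast is a description and supports nothing. Control MG thus held many Spc25 transcripts and next to none of the rest of its complex.

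The proliferation genes were also scarce in MG, and no difference was detectable in them. Mki67 had 16 UMIs in MG of Ptbp1-Ctrl (2.71 CPM, 1.55 to 4.40) and 22 in MG of Ptbp1-KO (4.33 CPM, 2.71 to 6.55). Its log2 ratio was 0.68 (−0.32 to 1.70), an interval that holds 0. These UMIs lay in 16 and 22 different cells. Top2a had 0 UMIs and 1 UMI. By the exact intervals, the count of 0 allows Top2a up to 0.625 CPM in Ptbp1-Ctrl and a UMI in up to 0.214% of its MG. A count of 3 would be 0.508 CPM, or 0.174% of these MG.

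In rods, cones, BC and AC the 5 genes other than Spc25 stood at or below 5.96 CPM in both libraries. Several were below 1 CPM, such as Spc24 in rods (0.614 and 0.621 CPM). Spc24 had 8 and 9 UMIs in rods (log2 ratio 0.02, −1.53 to 1.59) and 7 and 7 in BC (−0.06, −1.81 to 1.68). Nuf2 had 22 and 12 UMIs in rods (−1.03, −2.18 to 0.05), and Top2a 6 and 7 (0.07, −1.73 to 1.92). Mki67 had 13 and 13 UMIs in rods (−0.15, −1.38 to 1.07), 21 and 33 in BC (0.59, −0.25 to 1.45) and 7 and 23 in AC (0.74, −0.53 to 2.20). All of these intervals hold 0. Cones held at most 2 UMIs of any of the other 5 genes in a library, and RGC and HC at most 1, which gives no ratio.

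Ndc80 was the member with an interval clear of 0 outside the Spc25 results, in BC alone. There it had 24 UMIs against 9 in the knockout, and the log2 ratio was −1.48 (−2.77 to −0.32). The 24 UMIs lay in 14 cells, and 1 of these held 7. Without the cell of each library with the most Ndc80 UMIs, an alternative chosen after seeing the data, the counts were 17 and 8 and the ratio −1.15 (−2.57 to 0.14), which holds 0. In rods Ndc80 had 21 and 38 UMIs (0.70, −0.10 to 1.55), and 1 rod of Ptbp1-KO held 9 of the 38. In AC it had 1 and 8 UMIs (2.02, −0.88 to 7.49).

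**Figure D3:**
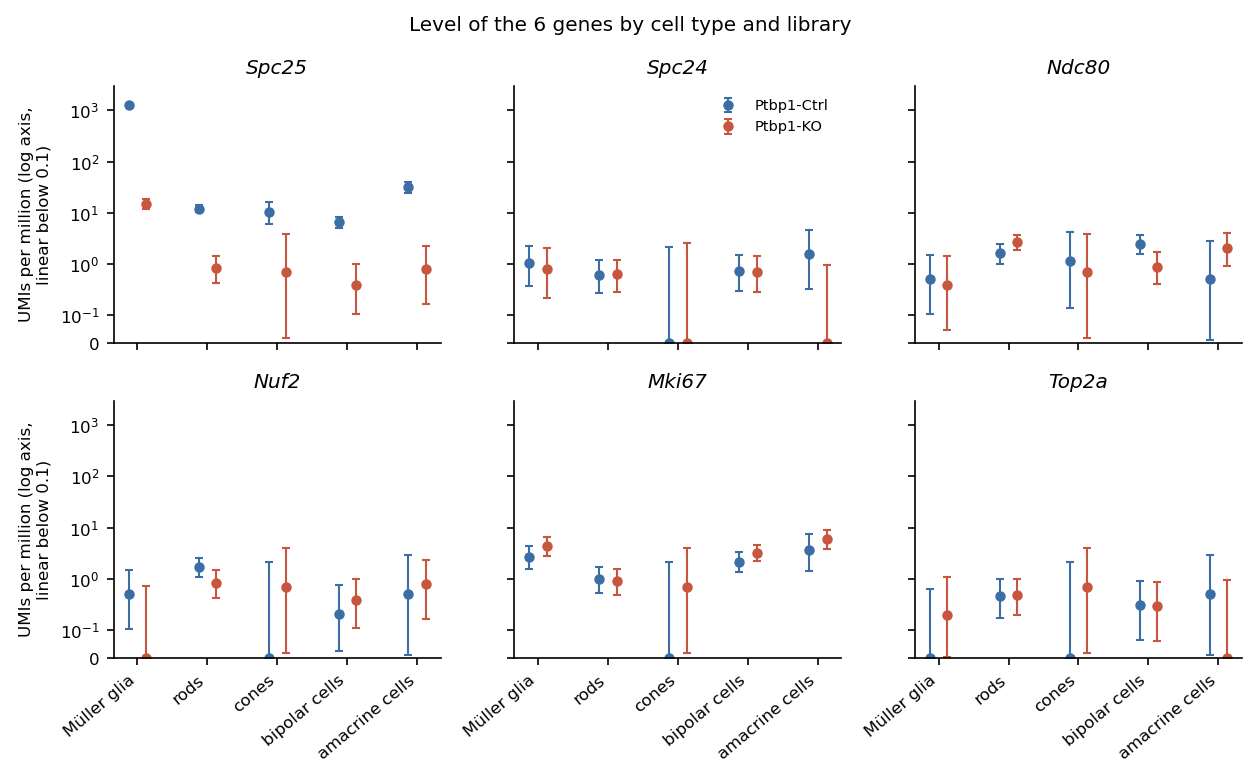
Level of the 6 genes in 5 cell types of Ptbp1-Ctrl (blue) and Ptbp1-KO (red), in CPM on a log axis that is linear below 0.1. Points are sums over the cells of 1 library and bars are 95% counting intervals. Spc25 in MG stands at 1281 and 14.7 CPM, and the other 5 genes stay at or below 5.96 CPM in each type drawn.

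Cells that held more than 1 of these transcripts were rare. Of 30943 cells, 30 held UMIs of at least 2 of the 6 genes, and 29 of them held Spc25 and another. Of the 30, 23 were MG of Ptbp1-Ctrl, where Spc25 is present in most cells. With Spc25 set aside, 339 cells held a UMI of at least 1 of the other 5 genes, and 1 cell, a rod of Ptbp1-Ctrl with Spc24 and Ndc80, held at least 2. No cell held 3. Among MG, 27 cells of Ptbp1-Ctrl and 29 of Ptbp1-KO held a UMI of the other 5 genes, and 0 in both libraries held at least 2 of them. With so few UMIs per cell these counts do not tell whether a cell was cycling.

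A wider set of kinetochore and cell cycle genes was measured in MG. It comprised 6 lists with 137 genes, of which 136 were in the table and 79 had 20 or more UMIs in MG. Several genes of mitosis fell below this minimum, among them Plk1 (2 and 2 UMIs), Aurkb (1 and 0) and Knl1 (8 and 1). The values below therefore do not show how such genes went. Of the 79, 3 were at least 2-fold lower in Ptbp1-KO (3.80%, against 1.56% of all genes) and 1 was at least 2-fold higher (1.27%, against 2.43%). The median log2 ratio was 0.01, with 39 genes lower and 40 higher, and the median over all genes was 0.00. The 3 lowest were Cenpf, a kinetochore protein of late cell cycle (16 and 4 UMIs, −1.78, −3.82 to −0.15), Anln, the anillin of the cleavage furrow (33 and 13 UMIs, −1.13, −2.18 to −0.16), and Cenpa, the histone variant of centromeres (51 and 21 UMIs, −1.06, −1.87 to −0.31). The 3 highest of the 79 were Mcm6, a subunit of the replicative helicase (6 and 15 UMIs, 1.54, 0.09 to 3.19), Mcm2 of the same helicase (13 and 19 UMIs, 0.76, −0.33 to 1.90) and Cdkn1a, the cell cycle inhibitor p21 (117 and 165 UMIs, 0.71, 0.36 to 1.07). Ccnd2, of the cell cycle regulators, was higher still but fell under the minimum, with 1 and 17 UMIs (4.30, 1.63 to 9.69).

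List by list, the medians stayed near 0. In the rest of the outer kinetochore, the platform on which the Ndc80 complex sits, 4 of 9 genes had 20 or more UMIs, their median was −0.16, and none passed 2-fold. One of them, Zwint, had 385 and 285 UMIs (−0.22, −0.44 to 0.01). The inner kinetochore list had 13 such genes of 21 (median −0.02), and the spindle checkpoint and chromosomal passenger list had 7 of 21 (median −0.01). Bub3, a checkpoint protein, had 302 and 259 UMIs (−0.01, −0.25 to 0.24). The S phase list had 17 such genes of 30 (median −0.04), the G2 and M phase list 17 of 32 (median −0.14) and the cell cycle regulators 21 of 24 (median 0.08). No list had more than 1 gene at least 2-fold lower.

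**Figure D4:**
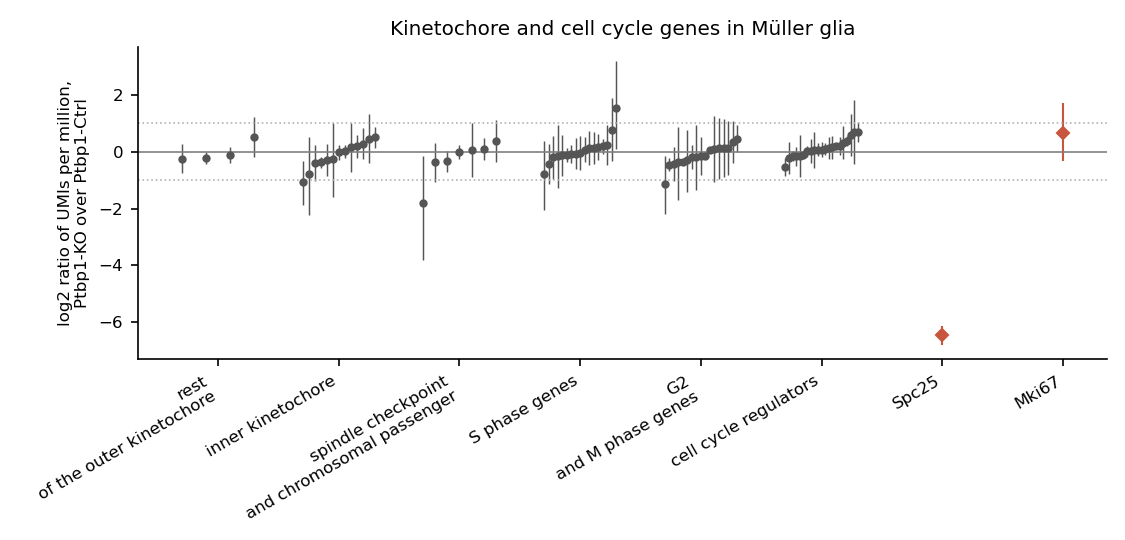
Log2 ratio of CPM in MG, Ptbp1-KO over Ptbp1-Ctrl, for the 79 kinetochore and cell cycle genes with 20 or more UMIs (grey, in 6 lists) and for Spc25 and Mki67 (red). Bars are 95% counting intervals and dotted lines mark 2-fold. The genes centre on 0.01 and the lowest, Cenpf, is at −1.78, while Spc25 is at −6.44.

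The gene lies on chromosome 2 of mm10, chr2:69193895-69206194 on the minus strand, and has 9 annotated transcripts with up to 7 exons. The partners lie elsewhere, Spc24 on chromosome 9, Ndc80 on chromosome 17 and Nuf2 on chromosome 1, and Ptbp1 lies on chromosome 10. Position was not used to choose the genes, so the annotated genes around Spc25 were measured, 10 on each side. Of these 20 neighbours, 13 had 20 or more UMIs in MG. Of the 13, 3 were at least 2-fold lower in Ptbp1-KO (23.1%, against 1.56% of all genes) and 0 were at least 2-fold higher.

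The 3 lower neighbours were among the genes closest to Spc25. Nostrin, a regulator of nitric oxide synthase traffic that ends 4.565 kb from Spc25, had 82 UMIs in MG of Ptbp1-Ctrl and 2 in MG of Ptbp1-KO (−5.14, −8.21 to −3.24). On the other side Abcb11, the bile salt export pump, 32.088 kb away, had 59 and 13 UMIs (−1.97, −2.96 to −1.08). Gm13613, an antisense RNA that overlaps Abcb11, had 108 and 20 UMIs (−2.22, −2.98 to −1.52). Whether strand was used in counting was not given in the sources used here, so the reads of Abcb11 and Gm13613 may not be independent. Between Spc25 and Abcb11 lies G6pc2, with 1 UMI in each library. In MG of Ptbp1-Ctrl the 82 Nostrin UMIs lay in 78 cells.

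Further out no neighbour passed 2-fold. Over all 13 neighbours with 20 or more UMIs 11 were lower, with a median log2 ratio of −0.25. Cers6, a ceramide synthase 79.6 kb from Spc25, had 1316 and 996 UMIs (−0.19, −0.31 to −0.07), and Lrp2, the receptor megalin, 218 kb away on the other side, had 227 and 225 (0.20, −0.07 to 0.48). The other 8 neighbours with 20 or more UMIs, namely B3galt1, Gm26743, Stk39, Bbs5, Klhl41, Fastkd1, Ppig and Ccdc173, lay between −0.47 and 0.13, and B3galt1 (−0.11, −0.16 to −0.06), Ppig (−0.25, −0.40 to −0.10) and Ccdc173 (−0.47, −0.83 to −0.12) had intervals below 0. In a window of 5 Mb on either side, chosen after these values were seen, 61 genes had 20 or more UMIs in MG. Spc25, Nostrin, Abcb11 and Gm13613 were the ones at least 2-fold lower, and Myo3b, named for its value, was the one at least 2-fold higher (1.54).

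**Figure D5:**
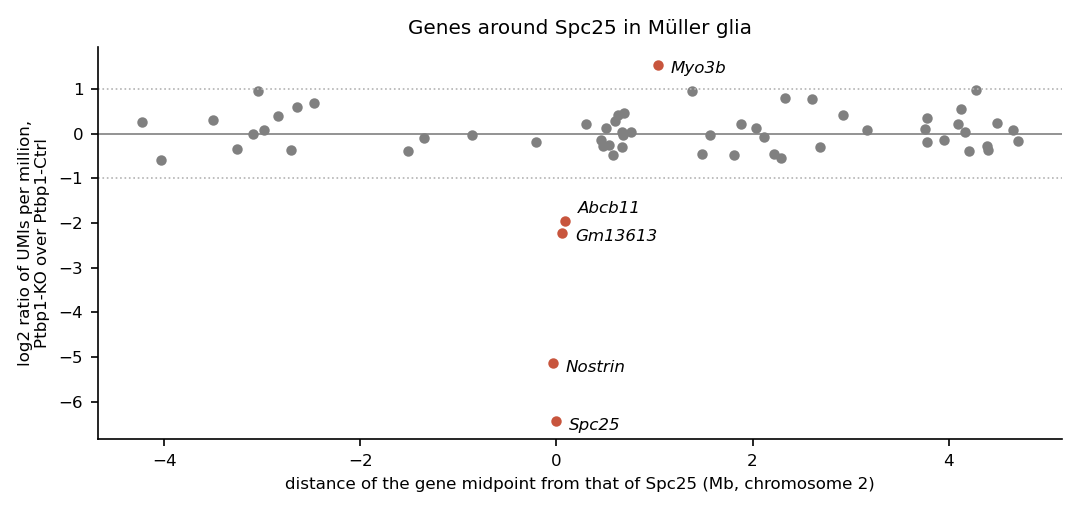
Log2 ratio of CPM in MG, Ptbp1-KO over Ptbp1-Ctrl, for 61 genes of chromosome 2 against the distance of their midpoint from that of Spc25 in Mb. Genes past 2-fold (dotted lines) are red and named. Nostrin (−5.14), Gm13613 (−2.22) and Abcb11 (−1.97) lie beside Spc25 (−6.44).

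Outside MG the neighbours did not all share the low level. Over all other types Nostrin had 13 UMIs in the control and 11 in the knockout (−0.41, −1.71 to 0.86), and Gm13613 had 7 and 7 (−0.17, −1.91 to 1.57). Abcb11 had 10 and 29 (1.36, 0.29 to 2.57). Spc25 was lower in rods, cones, BC and AC, as given above.

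The genes whose pattern was most like that of Spc25 were sought over 10 sums, 5 cell types in each library, among 14891 genes with 100 or more UMIs. By Pearson correlation of log2(CPM + 1) they were Mrps24 (r = 0.93), Hddc3 (0.91), Zhx1 (0.90), Magt1 (0.90), Cenpx (0.90), Gm4419 (0.90), Cmc2 (0.89) and Srsf10 (0.88). The 10 sums share 2 libraries and their depths, and they include the MG levels for which Spc25 was chosen, so these values are a description. None matched Spc25 in size. Mrps24, a mitochondrial ribosomal protein, went from 116 to 89.1 CPM in MG, and Hddc3 from 49.6 to 18.3 CPM. Cenpx, a histone-fold protein of the inner kinetochore list, had 490 and 326 UMIs in MG (−0.37, −0.58 to −0.17).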

How the data were processed

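Retinas of 1 Ptbp1-Ctrl and 1 Ptbp1-KO mouse were profiled. The authors prepared 10x Genomics 3′ libraries, aligned reads to mm10 with Cell Ranger 7.0.1 and filtered cells on genes, UMIs and a mitochondrial share under 20% in Seurat 4 (versions per the submitters' processing notes). The deposited table holds raw UMI counts, not normalized, and the deposited cell table gives total counts, the mitochondrial percent, clusters and cell types, which were used as deposited. A further 2 columns of per-cell values were not used. No doublet caller was run, and leaving out the 5% of cells with the most UMIs was an alternative.

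Counts were summed by library and cell type and expressed as CPM with exact Poisson intervals, ratios with exact conditional binomial intervals and shares with exact Clopper-Pearson intervals, at 95%, for counting error only. Total counts per library and type are given with the results or lie between 42851 (HC of Ptbp1-KO) and 14494233 (rods of Ptbp1-KO). With 1 animal per genotype no test was run and no p-value is given. No ratio is given where both libraries have at most 3 UMIs, and 0 was set to 3 UMIs elsewhere. Lists used genes with 20 or more UMIs over both libraries. Equal-depth shares are the means expected over draws of 1000 UMIs per cell, leaving out shallower cells. Positions are those of GENCODE M21 on mm10 and promoters those of RefSeq. The genes named were the 6 members, Ptbp1 and Ptbp2, the 3 highest and 3 lowest ratios of the lists, the neighbours with 20 or more UMIs and the 8 genes most like Spc25. The members and lists were chosen with earlier results of these data known. Usp9y, Myo3b, Zwint, Bub3, G6pc2, Gm21860, Cyp26b1, Rarres2, Plk1, Aurkb, Knl1 and Ccnd2 were named after their values were seen. E2f8, in the S phase list, was not in the table used here. A planned background correction is not reported here. The ratio step was tested on simulated data. Python 3.11, numpy 2.4.6, scipy 1.17.1, pandas 2.3.3 and, for scaling, edgeR 4.0.16 in R 4.3.3 were used.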

Additional observations from a re-analysis of the deposited data

Results flagged for a closer look

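Abcb11, a neighbour of Spc25, differed in opposite directions in MG and in rods. In MG it was lower in Ptbp1-KO, with a log2 ratio of −1.97 (59 and 13 UMIs, −2.96 to −1.08), and in rods it was higher, with a log2 ratio of 2.10 (4 and 19 UMIs, 0.51 to 4.11). The 19 UMIs lay in 19 rods. With 1 library per genotype, this contrast of rods with MG was not tested. Among the 6 genes of the report none had intervals clear of 0 in opposite directions.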

How the results depend on the processing

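No paired analysis was possible because there is 1 library per genotype. Of 53 alternatives for 18 results other than list medians, 43 stayed within the counting interval of the value given, or within 1.5 times of a count, and the others are given here. The Spc25 ratio in MG lay between −6.48 and −6.19 under 6 alternatives, namely scaling by TMM or by the median of ratios, cells of at least 1000 UMIs, thinning to 1000 UMIs, leaving out the deepest 5% of cells and the main MG cluster alone. The Spc24 ratio lay between −0.80 and −0.38, and that of Mki67 between −0.08 (thinned, 6 and 4 UMIs) and 0.87, so its sign is not fixed. The list medians changed sign in 5 of 24 alternatives. Their ranges were −0.24 to −0.16 for the rest of the outer kinetochore, −0.04 to 0.04 for the inner kinetochore, −0.24 to 0.02 for the spindle checkpoint, −0.06 to 0.18 for S phase, −0.16 to −0.14 for G2 and M phase and 0.02 to 0.08 for the regulators. Ratios of Ndc80, Nuf2 and Top2a in MG, and that of Spc24 after thinning, could not be computed.

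Thinning to 1000 UMIs changed values because fewer UMIs remain. The Spc25 ratio in cones, at 4 and 0 UMIs, became a bound of 0.056 with 0 set to 3 UMIs, which gives no direction, and in BC, at 19 and 0 UMIs, a bound of −2.37. The Nostrin ratio became a bound of −2.999 (34 and 0 UMIs), and those of Abcb11 and Gm13613 stayed between −2.04 and −1.50 and between −2.50 and −2.17 under 6 alternatives chosen after seeing the data. The share of MG with a Spc25 UMI was 64.7% and 1.43% at 1000 UMIs, and 3.14% in Ptbp1-KO at 2000 UMIs. Cells with at least 2 of the 6 genes numbered 5 after thinning, against 30. With a minimum of 50 UMIs, 86 genes were at least 2-fold lower in MG and 155 higher, against 218 and 341 at 20 UMIs. With log2(CPM + 10) 2 of the 8 genes most like Spc25 were shared.

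Depth limits what can be seen of the partners and of Top2a, since at these totals 3 UMIs in MG are 0.508 CPM for the control library and 0.590 CPM for the knockout. The intervals do not cover differences between mice, dissociations or libraries.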

Other observations

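The genes most like Spc25 changed with the constant added to CPM. With log2(CPM + 10), which gives low levels less weight, they were Nostrin (r = 0.96), Gm21860 (0.95), Gm13613 (0.93), Cyp26b1 (0.92), Il17rb (0.92), Gm4419 (0.91), Rarres2 (0.90) and Zhx1 (0.89), over the same 10 sums and 14891 genes. Zhx1 and Gm4419 are in both sets. Nostrin and Gm13613 are neighbours of Spc25 on chromosome 2. The sums include MG of both libraries, so a lower level in knockout MG is part of what this choice selects. The MG ratios that follow are a description and support nothing. In MG, Gm21860 had 262 UMIs in the control and 18 in the knockout (log2 ratio −3.65, −4.43 to −2.96). Cyp26b1, an enzyme that breaks down retinoic acid, had 136 and 20 (−2.55, −3.31 to −1.87). Rarres2, which encodes chemerin, had 258 and 81 (−1.46, −1.83 to −1.09).

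Ptbp2, the paralog of Ptbp1, stood at 203 CPM in MG of Ptbp1-Ctrl and 308 CPM in MG of Ptbp1-KO (1201 and 1567 UMIs, log2 ratio 0.60, 0.49 to 0.71). Its log2 ratios were 0.12 in rods, −0.15 in cones, −0.03 in BC and 0.03 in AC, and the median ratio of all genes in rods was 0.09.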
